A study of Mus musculus with 8 samples.

Results

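The 10 genes described here belong to the metalloproteinase system of the cell surface and the extracellular matrix: the tissue inhibitors Timp1, Timp2 and Timp3, the matrix metalloproteinases Mmp2, Mmp12 and Mmp14, the disintegrin metalloproteinases Adam8, Adam10 and Adam17, and Adamts1. They were chosen by gene name and are 10 of the 37447 genes of the deposited table, each with 1 row. Optic nerves of C57BL/6 mice aged 3 months were the source of the microglia, which were isolated by flow sorting before their RNA was amplified and sequenced. FF mice carried the genotype Nf1 flox/flox and served as controls. FFC mice carried Nf1 flox/flox together with GFAP-Cre, a recombinase driven by the promoter of an astrocyte gene, so that Nf1 is lost in astrocytes while the sorted cells are not the target of the deletion. Each genotype had 4 libraries, 2 from females and 2 from males, and the sources used here do not say whether a library held 1 animal or several. The p-values measure only the spread between these libraries. The question was which microglial transcripts differ when the neighbouring astrocytes lack Nf1.

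Matrix metalloproteinases are zinc enzymes made as inactive precursors, and they cut collagens, laminins, elastin and other matrix proteins. ADAM10 and ADAM17 sit in the membrane and release the outer part of other membrane proteins, among them tumour necrosis factor, its receptors and TREM2. TIMPs bind the active site of matrix metalloproteinases and block it, and TIMP3 also inhibits ADAM17. TIMP2 also has a second role, since it bridges MMP14 at the cell surface to the MMP2 precursor, which MMP14 then cuts into its active form. Transcript levels do not report enzyme activity, which is set largely by precursor cleavage and inhibitors.

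The table gives levels as FPKM, fragments scaled by transcript length and by the mapped fragments of the library, with no counts behind it. Differences are FFC minus FF on the scale log2(FPKM + 1), which understates the change of low genes, and errors of group means are SD with n = 4. Counts of genes with a higher or lower mean in FFC use the log2 scale too, where the direction can differ from that of mean FPKM. The test covered the 17753 genes whose 8 libraries averaged 1 FPKM or more, among them all members except Timp1. The lowest values of short genes, which step by what 1 fragment is worth, put the relative depth of the libraries between 21.0% (FF 2) and 100% (FF 1) of the deepest. FF 2 and FF 4 stood apart from the rest. They had the lowest median Spearman correlation with the other libraries (0.398 and 0.464, against 0.507 to 0.597), and 4.23% and 3.50% of their FPKM in olfactory and vomeronasal receptor genes, against 0.708% to 1.62%. The summed level of 14 microglia markers was 1833 FPKM in FF 2, 3225 in FF 4, and 3870 to 6924 in the others, and all 14 markers were above 1 FPKM in all 8 libraries. In bulk RNA, fewer cells of a type and less RNA per cell cannot be told apart.

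Timp2, Mmp14 and Adam17 had higher levels in FFC than in FF microglia, about 2.30-fold to 3.37-fold as a ratio of mean FPKM, while Adam10, the enzyme with the highest mean level among the members, was nearly equal in both genotypes. On the log2 scale Timp2 and Mmp14 were also the members with the largest differences in that direction. As a ratio of mean FPKM, Adam8 had the largest (17.3-fold), which rested on FFC 1. No member passed the test: limma (empirical Bayes, Benjamini-Hochberg adjustment over all tested genes) called 0 of the 9 tested members and 0 of 17753 genes (0%), and the exact permutation test, adjusted the same way, also called 0. At an unadjusted p under 0.05 there were 2 members, Timp2 and Mmp14, against 6.46% of all tested genes (4.52% higher and 1.94% lower in FFC). Of those 1146 genes 802 were higher in FFC, and with upper-quartile scaling 650 of 1088 were. The libraries of both genotypes overlapped for each of the 10 members, where 4.34% of all tested genes did not overlap (3.05% higher and 1.29% lower in FFC). Of the tested members 5 had a higher mean in FFC and 4 a lower one, against 56.7% of all tested genes with a higher mean, and their median difference was 0.31 against 0.19 over all tested genes.

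**Figure D1:**
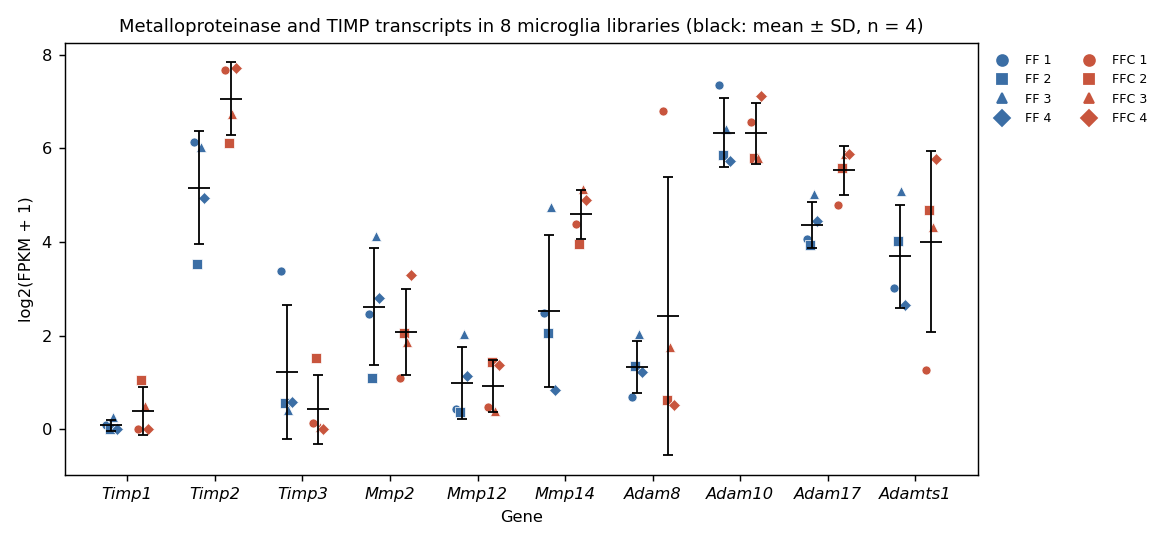
Level of each of the 10 genes as log2(FPKM + 1) in the 4 FF libraries (blue) and the 4 FFC libraries (red); symbols give the library number, and black bars the mean and SD of each group. Timp2, Mmp14 and Adam17 lie higher in FFC with overlap, and the Adam8 mean in FFC rests on FFC 1.

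Timp2 encodes the inhibitor that also helps MMP14 to activate MMP2. Its gene lies on chromosome 11 from 118162383 to 118217054 (mm9, ENSMUSG00000017466). Its level was 69.2, 10.6, 64.2 and 29.9 FPKM in FF libraries 1 to 4, against 202, 67.9, 106 and 209 FPKM in FFC libraries 1 to 4. FF 2 and FF 4 were the lowest, FFC 1 and FFC 4 the highest, and the overlap came from FF 1, which lay just above FFC 2. The group levels were 43.5 ± 28 FPKM in FF against 146 ± 70.5 FPKM in FFC. The difference on the log2 scale was 1.89 ± 0.70 (SE; 95% interval 0.38 to 3.41; limma adjusted p = 0.712; exact two-sided permutation p = 0.0571, where 0.0286 is the smallest that 4 against 4 libraries can give). It was 0.98 without FF 2 and FF 4 (limma adjusted p = 0.847) and 0.66 with the receptor share of each library as a term (limma adjusted p = 0.903). By the month written in the sample titles, it was 2.43 among the November libraries (3 FF and 1 FFC) and 1.90 among the December libraries (1 FF and 3 FFC). The predicted gene BC100451 overlaps Timp2 over 10141 bases, and the sources used here do not state whether counting used strand. Reads from those shared bases therefore cannot be assigned to 1 of the 2 genes. Its level was 1.18, 2.55, 0.419 and 4.06 FPKM in the FF libraries, against 91.8, 13.8, 4.98 and 24.6 FPKM in the FFC libraries, so both genes were at their 2 highest levels in FFC 1 and FFC 4.

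Timp1 and Timp3, the other inhibitors among the 10, were scarce. Timp1 (chromosome X, 20447292 to 20451861), the inducible and soluble family member, was listed at 0 in FF 2, FF 4, FFC 1 and FFC 4. In the other libraries it was at 0.0703 FPKM (FF 1), 0.195 (FF 3), 1.09 (FFC 2) and 0.418 (FFC 3), and its mean of 0.222 FPKM kept it out of the test. Timp3 (chromosome 10, 85763117 to 85812251), which binds to the matrix and inhibits ADAM17, was at 9.39, 0.484, 0.329 and 0.495 FPKM in the FF libraries, against 0.101, 1.87, 0.0362 and 0.00402 FPKM in the FFC libraries. A single library of each genotype, FF 1 and FFC 2, was above 1 FPKM. The difference was -0.80 ± 0.84 (SE; limma adjusted p = 0.786), and it shrank to -0.091 without FF 1. FF 1 was also the library with the highest summed level of 10 mural and fibroblast markers (90.8 FPKM, against 11.6 to 46.8 in the other FF and 6.22 to 22.4 in FFC), with the fibroblast gene decorin, Dcn, at 45.1 FPKM, while the pericyte gene Pdgfrb was higher in FF 3 and FFC 4 (1.60 and 3.99 FPKM) than in FF 1 (1.25 FPKM). The summed astrocyte, neutrophil and border macrophage markers were also highest in FF 1 (320, 2889 and 1122 FPKM). Endothelial markers were highest in FFC 1 (172 FPKM, against 40.0 in FF 1), and oligodendrocyte lineage markers in FFC 4 (50.6, against 50.5 in FF 1). The part of any of these cells in the Timp3 value was not tested. Both genes lie inside a synapsin gene, Timp1 in Syn1 and Timp3 in Syn3, whose own levels were at most 1.34 and 1.07 FPKM in any library.

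Mmp14 encodes the membrane-bound collagenase that activates MMP2, and lies on chromosome 14 from 55050441 to 55060095 (ENSMUSG00000000957). It was at 4.57, 3.14, 25.8 and 0.802 FPKM in FF libraries 1 to 4, against 20.0, 14.5, 33.9 and 28.7 FPKM in FFC libraries 1 to 4. FF 3 lay inside the FFC range, and the other 3 FF libraries lay below all FFC libraries. The group levels were 8.58 ± 11.6 FPKM in FF against 24.3 ± 8.69 FPKM in FFC, a difference of 2.06 ± 0.86 on the log2 scale (SE; 95% interval 0.20 to 3.92; limma adjusted p = 0.729; exact two-sided permutation p = 0.0857). It was 0.98 without FF 2 and FF 4 (limma adjusted p = 0.854), 0.81 with the receptor share as a term, 1.30 within November and 3.81 within December. FF 3 also had the highest summed level of 10 immediate-early genes, which tissue dissociation induces, among the FF libraries. That sum was 883 FPKM, against 85.0 to 163 in the other FF, 189 in FFC 1 and 822 to 1643 in FFC 2 to FFC 4. Of the 10 tested immediate-early genes 9 had a higher mean in FFC (median difference 1.52), and their part in the Mmp14 and Timp2 differences was not tested.

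Mmp2, the gelatinase that cuts basement membrane collagen, and Mmp12, the macrophage elastase, were low and did not separate the genotypes. Mmp2 (chromosome 8, 95351227 to 95377316) was at 4.53, 1.14, 16.4 and 5.95 FPKM in the FF libraries, against 1.14, 3.15, 2.66 and 8.88 FPKM in the FFC libraries. FF 3 was the highest and FF 2 and FFC 1 the lowest. The difference was -0.54 ± 0.88 (SE; limma adjusted p = 0.874), and it was -1.21 without FF 2 and FF 4 and -0.039 without FF 3. Mmp2 is mainly a fibroblast and mural gene in nervous tissue. Of those 10 markers, 6 were tested and 5 had a lower mean in FFC (median difference -1.02), and their part in the Mmp2 values was not tested. Mmp12 (chromosome 9, 7344381 to 7369499) was at 0.354, 0.303, 3.08 and 1.19 FPKM in the FF libraries, against 0.391, 1.70, 0.323 and 1.60 FPKM in the FFC libraries. Each genotype had 2 libraries above 1 FPKM, and the difference was -0.073 ± 0.73 (SE; 95% interval -1.65 to 1.51; limma adjusted p = 0.983). Reads from Mmp12 and its neighbour Mmp1b, which overlap over 1261 bases, may be split between them.

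Adam17 encodes TACE, the sheddase that releases tumour necrosis factor, and lies on chromosome 12 from 21329370 to 21379493 (ENSMUSG00000052593). It was at 15.6, 14.2, 31.4 and 20.7 FPKM in the FF libraries, against 26.5, 46.9, 58.0 and 57.6 FPKM in the FFC libraries. In FFC 3 of the 4 libraries lay above all FF libraries, and FFC 1 lay between FF 4 and FF 3. The group levels were 20.5 ± 7.78 FPKM in FF against 47.2 ± 14.8 FPKM in FFC, and the difference was 1.17 ± 0.61 (SE; 95% interval -0.16 to 2.49; limma adjusted p = 0.759; exact two-sided permutation p = 0.0571). It was 0.99 without FF 2 and FF 4, 0.79 with the receptor share as a term, 0.45 within November and 1.34 within December. Among Timp2, Mmp14 and Adam17, Adam17 thus changed the least when FF 2 and FF 4 were left out. This order was not tested. Adam8 moved from 1.10 to 1.06 in that setting, though its difference turned to -0.36 without FFC 1.

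Adam10, the sheddase of the amyloid precursor protein, Notch receptors and TREM2, lies on chromosome 9 from 70526804 to 70628036. It was at 163, 56.6, 84.7 and 51.8 FPKM in the FF libraries, against 93.7, 54.8, 54.3 and 137 FPKM in the FFC libraries. Both groups spanned nearly the same range, and the difference was -0.020 ± 0.60 (SE; limma adjusted p = 0.994), with a 95% interval of -1.31 to 1.27 that leaves room for a change of over 2-fold either way. Adam10 lay between percentile 91.6 and 96.5 of the tested genes in all 8 libraries, near the top of that scale. Its SD on the log2 scale was 0.74 within FF and 0.64 within FFC. The same values were 0.49 and 0.52 for Adam17, and 1.21 and 0.78 for Timp2.

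Adam8, a metalloproteinase of activated leukocytes, was low in 7 libraries and high in 1. Its gene lies on chromosome 7 from 147164831 to 147178461. It was at 0.610, 1.56, 3.11 and 1.32 FPKM in the FF libraries, against 111, 0.537, 2.38 and 0.435 FPKM in the FFC libraries, where FFC 1 alone carried the group mean. Without FFC 1 the difference of 1.10 ± 1.25 (SE; limma adjusted p = 0.802) turned to -0.36. Neutrophils also express Adam8, and the summed level of 10 neutrophil markers was lower in FFC 1 (188 FPKM) than in any other library (325 to 2889 FPKM), with S100a8 at 0.785 FPKM and Ly6g listed at 0. The part of neutrophils in the Adam8 values was not tested. Adamts1, a secreted protease that cuts proteoglycans such as versican, lies on chromosome 16 from 85794072 to 85803358. It was at 7.13, 15.2, 33.1 and 5.27 FPKM in the FF libraries, against 1.42, 24.7, 18.9 and 53.3 FPKM in the FFC libraries, with the highest and the lowest library both in FFC. Its difference was 0.31 ± 0.97 (SE; limma adjusted p = 0.940) and turned to -0.047 without FF 2 and FF 4. Adamts1 is itself induced by dissociation in many cells, and its 4 highest libraries included FF 3, FFC 2, FFC 3 and FFC 4, the 4 with over 800 FPKM of summed immediate-early genes. The part of that response in the Adamts1 values was not tested.

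**Figure D2:**
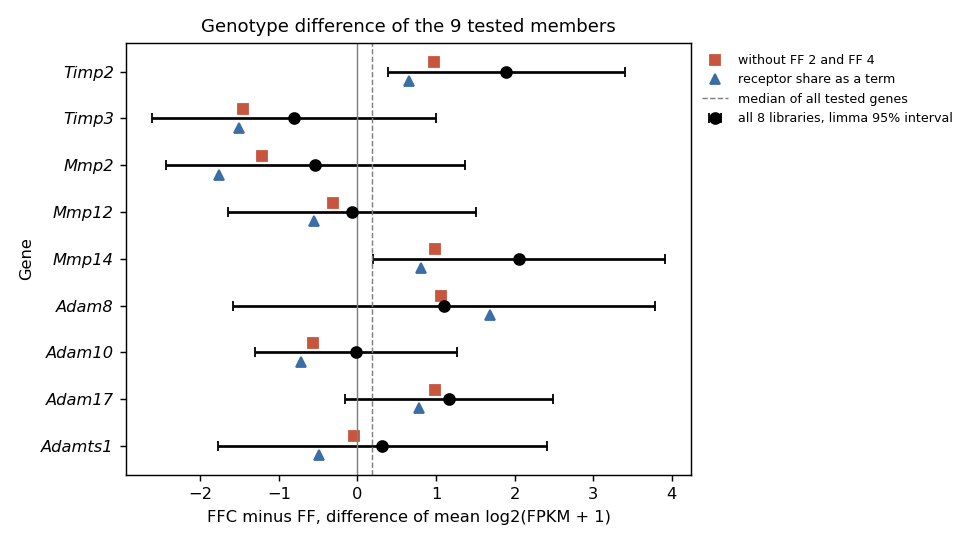
FFC minus FF difference of mean log2(FPKM + 1) for the 9 tested genes; black points and bars give all 8 libraries with limma's 95% interval, red squares the value without FF 2 and FF 4, and blue triangles the value with the receptor share as a term. The intervals of Timp2 and Mmp14 lie above 0 before adjustment, and their red and blue values are at or below 0.98.

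In order of mean level over the 8 libraries, Timp2 (94.9 FPKM) and Adam10 (87.0) came first, followed by Adam17 (33.9), Adamts1 (19.9), Mmp14 (16.4), Adam8 (15.1), Mmp2 (5.48), Timp3 (1.59), Mmp12 (1.12) and Timp1 (0.222). The place of Adam8 rested on FFC 1, and its median was 1.44 FPKM. Neighbours in this order overlapped in their ranges over libraries. Promoter windows were taken as annotated by RefSeq in GRCm38.p6 for 9 of the 10 genes (all but Mmp2), from 250 bases before to 50 bases after the start site. The windows of Adam10, Adam17 and Timp2 held 32, 30 and 25 CpG dinucleotides, against a median of 7 over 32851 such windows. The scarce Timp3 held 24, so CpG number did not follow level throughout. Adamts1 held 18, Mmp14 held 10, Timp1 held 8, Adam8 held 6 and the 2 start sites of Mmp12 held 0 and 3. Of all windows, 16.9% held more CpG dinucleotides than that of Timp2. The windows of Timp2, Adam17 and Timp3 are shown because they share a high CpG number at different levels, and both Mmp12 windows for contrast. Capitals mark CpG dinucleotides in the first 3 and motif matches in Mmp12. Each is read 5′ to 3′ on the strand of its gene.
Timp2, chr11:118355362-118355661, minus strand: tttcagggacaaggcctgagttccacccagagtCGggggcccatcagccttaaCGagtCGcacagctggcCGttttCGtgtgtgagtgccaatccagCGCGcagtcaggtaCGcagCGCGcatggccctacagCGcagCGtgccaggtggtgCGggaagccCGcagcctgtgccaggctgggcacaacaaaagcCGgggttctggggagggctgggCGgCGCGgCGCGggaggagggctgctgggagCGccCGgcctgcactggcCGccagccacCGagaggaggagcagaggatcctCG
Adam17, chr12:21373583-21373882, minus strand: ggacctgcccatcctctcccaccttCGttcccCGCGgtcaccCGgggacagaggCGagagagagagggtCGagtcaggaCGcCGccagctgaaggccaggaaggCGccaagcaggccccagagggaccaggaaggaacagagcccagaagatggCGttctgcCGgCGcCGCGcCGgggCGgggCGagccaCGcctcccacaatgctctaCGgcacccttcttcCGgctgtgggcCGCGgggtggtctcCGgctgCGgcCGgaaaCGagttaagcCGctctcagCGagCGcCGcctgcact
Timp3, chr10:86300162-86300461, plus strand: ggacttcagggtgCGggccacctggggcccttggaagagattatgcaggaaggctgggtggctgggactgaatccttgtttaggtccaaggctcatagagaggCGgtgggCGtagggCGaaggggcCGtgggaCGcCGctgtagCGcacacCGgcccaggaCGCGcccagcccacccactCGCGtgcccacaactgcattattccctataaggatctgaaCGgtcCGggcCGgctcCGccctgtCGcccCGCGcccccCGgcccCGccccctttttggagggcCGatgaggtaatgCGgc
Mmp12 first start, chr9:7344147-7344446, plus strand: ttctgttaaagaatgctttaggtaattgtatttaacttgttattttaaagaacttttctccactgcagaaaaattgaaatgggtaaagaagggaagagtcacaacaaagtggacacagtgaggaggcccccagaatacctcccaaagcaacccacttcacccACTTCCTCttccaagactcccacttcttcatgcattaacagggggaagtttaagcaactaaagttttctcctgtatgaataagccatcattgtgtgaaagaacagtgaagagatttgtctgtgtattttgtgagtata
Mmp12 second start, chr9:7347124-7347423, plus strand: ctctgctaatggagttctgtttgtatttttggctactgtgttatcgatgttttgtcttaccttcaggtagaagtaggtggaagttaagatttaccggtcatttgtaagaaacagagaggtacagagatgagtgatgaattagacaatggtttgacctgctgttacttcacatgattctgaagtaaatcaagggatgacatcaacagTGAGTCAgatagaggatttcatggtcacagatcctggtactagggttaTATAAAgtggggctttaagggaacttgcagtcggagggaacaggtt
Searched on both strands, the AP-1 motif TGANTCA was found in 1 of the 10 member windows, the second Mmp12 start, 44 bases before it, and in 7.81% of all windows. The motif GAGGAAGT, the form bound by the myeloid factor PU.1, was found at the first Mmp12 start on the opposite strand and in 3.20% of all windows. The letters TATAAA were found 32 bases before the start of Adamts1, 4 bases after the second Mmp12 start, and in 13.6% of all windows. These are letter matches in these windows and not measured sites.

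Ratios within a library do not depend on its scaling. The ratio of Mmp14 to Mmp2, activator to substrate, was 1.01, 2.76, 1.57 and 0.135 in FF libraries 1 to 4, against 17.5, 4.61, 12.8 and 3.23 in FFC libraries 1 to 4, without overlap. The ratio of Timp2 to Mmp2 did not overlap either, at 3.91 to 15.3 across FF and 21.6 to 177 across FFC libraries. Nor did that of Timp2 to Adam10, at 0.188 to 0.759 across FF and 1.24 to 2.16 across FFC libraries, so that Adam10 had the higher level in all FF libraries and Timp2 in all FFC libraries. These 3 were the ratios without overlap among the 36 pairs of the 9 tested members (8.33%), against 4.27% of the pairs of tested genes above 0 in every library. The pairs share genes, and they were picked out after their values were seen, so no test is given. The ratio of Timp2 to Mmp14 overlapped, at 2.49 to 37.3 across FF and 3.12 to 10.1 across FFC libraries, with Timp2 above Mmp14 in all 8 libraries. The ratio of Adam10 to Adam17 was 2.5 to 10.4 across FF and 0.936 to 3.54 across FFC libraries, also with overlap. Adam17 was above its inhibitor's transcript Timp3 in all 8 libraries, by the least in FF 1 (1.67-fold).

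**Figure D3:**
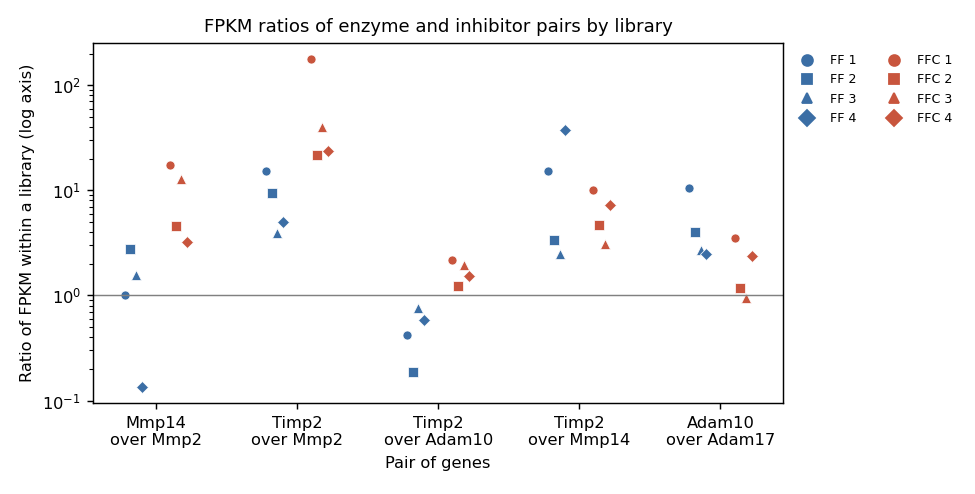
Ratio of FPKM between 2 genes of the same library, on a log axis, for the 4 FF (blue) and 4 FFC (red) libraries; the grey line marks equal levels. Mmp14 over Mmp2, Timp2 over Mmp2 and Timp2 over Adam10 do not overlap between genotypes, and Timp2 over Mmp14 and Adam10 over Adam17 do.

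Other genes of the family were mostly scarce. Of 20 other matrix metalloproteinases, 11 were below the filter, and of the 9 tested 8 had a lower mean log2 value in FFC (median difference -0.59). None passed, and none was above 1 FPKM in all 8 libraries. The gelatinase Mmp9 was at 44.6 FPKM in FFC 4 and at 0.0119 to 9.24 FPKM elsewhere. Its mean FPKM was higher in FFC (11.3, against 3.31 in FF), which rested on FFC 4. Mmp24 reached 30.2 FPKM in FF 1 and at most 2.42 FPKM in the others. The smallest unadjusted p of the list belonged to Mmp27, at 2.59 ± 3.24 FPKM in FF against 0.103 ± 0.085 FPKM in FFC (limma adjusted p = 0.759). The 1 gene with a higher mean log2 value in FFC was Mmp25, a membrane-anchored enzyme of leukocytes, at 0.268 ± 0.266 FPKM in FF against 2.72 ± 2.88 FPKM in FFC (limma adjusted p = 0.759). Mmp11, Mmp16 and Mmp28 had means of 4.54, 4.2 and 2.19 FPKM in FF against 2.12, 0.920 and 0.246 FPKM in FFC.

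Among 18 other ADAMs, 9 were tested, 3 with a higher and 6 with a lower mean in FFC (median difference -0.20), and none passed. Adam15 was the most abundant metalloproteinase of these lists, at 139 ± 58.9 FPKM in FF against 190 ± 131 FPKM in FFC (limma adjusted p = 0.886). Adam33 was at 28.9 ± 17.8 FPKM in FF against 6.34 ± 1.02 FPKM in FFC (limma adjusted p = 0.743). Adam21, a testis gene by its usual expression, was at 8.93, 8.79, 4.89 and 4.71 FPKM in the FF libraries, against 0.161, 0.0702, 0.737 and 0 FPKM in the FFC libraries, without overlap (limma adjusted p = 0.605), where 4.34% of all tested genes did not overlap. Adam4 and Adam9 had means of 5.51 and 4.92 FPKM in FF and of 17.3 and 13.6 FPKM in FFC, and Adam7 of 4.28 FPKM in FF and 0.0715 FPKM in FFC. Of 18 other ADAMTS genes 14 were below the filter, and of the 4 tested 3 had a lower mean in FFC. Adamts6 was at 3.46 ± 2.04 FPKM in FF against 0.238 ± 0.187 FPKM in FFC, also without overlap (limma adjusted p = 0.754). The means of Adamts10, Adamts16 and Adamts18 were 14.6, 4.86 and 2.37 FPKM in FF, against 15.6, 3.18 and 0.0949 FPKM in FFC.

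Among 6 other inhibitors, cystatin C, Cst3, a cysteine protease inhibitor and one of the most abundant microglial transcripts, was at 3126 ± 1810 FPKM in FF against 3545 ± 1495 FPKM in FFC. Serpine2, a secreted inhibitor of thrombin and plasminogen activators, was at 15.4, 19.6, 113 and 20.0 FPKM in the FF libraries, against 73.3, 141, 104 and 138 FPKM in the FFC libraries (difference 1.90 ± 0.69, SE; limma adjusted p = 0.712). Like Mmp14, it was high in FF 3 and low in the other FF libraries. Timp4 was at 54.3 FPKM in FF 1 and below 1 FPKM in the other 7 libraries.

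Genes that activate or carry these enzymes gave 8 of 14 tested with a higher mean in FFC (57.1%, against 56.7% of all tested genes), with a median difference of 0.74, and none passed. Furin, the convertase that removes the prodomains of MMP14, ADAM10 and ADAM17, was at 4.51, 3.37, 26.5 and 7.77 FPKM in the FF libraries, against 29.5, 26.3, 15.4 and 26.8 FPKM in the FFC libraries (limma adjusted p = 0.759). FF 3 lay inside the FFC range here too. The tetraspanins that escort ADAM10 differed in direction. Tspan14 was at 5.78 ± 4.79 FPKM in FF against 20.5 ± 10.8 FPKM in FFC, and Tspan10 at 6.29 ± 5.15 FPKM in FF against 0.375 ± 0.663 FPKM in FFC (limma adjusted p = 0.755 for both). The log2 difference was also below 0 for Tspan5 (-0.40) and Tspan17 (-0.78), and above 0 for Tspan33 (0.77). Plau, the urokinase that activates plasminogen, was at 21.7 ± 20.9 FPKM in FF against 31.0 ± 22.4 FPKM in FFC (limma adjusted p = 0.798). Basigin, Bsg, an inducer of matrix metalloproteinases, was at 59.9 ± 34.6 FPKM in FF against 134 ± 31.9 FPKM in FFC (limma adjusted p = 0.756). Frmd8, which stabilises the iRhom partners of ADAM17, was at 2.43, 82.5, 9.16 and 9.92 FPKM in the FF libraries, against 4.31, 0.716, 6.65 and 0.459 FPKM in the FFC libraries (limma adjusted p = 0.759). Its FF mean rested on FF 2, one of the libraries that stood apart.

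The shed substrates of ADAM10 and ADAM17 had a higher mean in FFC for 12 of 15 tested genes (median difference 0.72), and none passed. The libraries did not overlap for 3 of them in the higher direction, against 3.05% of all tested genes. Tnf, the classical ADAM17 substrate, was at 0.999, 0, 6.87 and 1.12 FPKM in the FF libraries, against 12.5, 17.0, 16.9 and 12.1 FPKM in the FFC libraries (limma adjusted p = 0.651). Cxcl16, a membrane chemokine cut by ADAM10, was at 22.8 ± 8.54 FPKM in FF against 82.9 ± 36.0 FPKM in FFC (limma adjusted p = 0.712). The TNF receptor gene Tnfrsf1b was at 9.11 ± 3.71 FPKM in FF against 33.3 ± 16.9 FPKM in FFC (limma adjusted p = 0.712). The most abundant substrates of the list are microglial receptors. Csf1r, the survival receptor of microglia, was at 674 ± 274 FPKM in FF against 875 ± 194 FPKM in FFC, and Trem2, a lipid receptor, at 314 ± 193 FPKM in FF against 483 ± 254 FPKM in FFC. The phagocytic receptors Axl and Mertk had log2 differences of 0.72 and 0.54. Microglia markers taken alone had a higher mean in FFC for 12 of 14 genes (median difference 0.48), and their part in the substrate levels was not tested.

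Of the matrix substrates, 6 of 7 tested genes had a lower mean in FFC (median difference -1.10), and 11 of 18 were below the filter. Markers of some other cell types also mostly had a lower mean in FFC. These were 5 of 6 tested mural and fibroblast markers (median difference -1.02) and 6 of 7 endothelial markers (median difference -0.70). So were 5 of 6 border macrophage markers (median difference -0.70) and 5 of 8 neutrophil markers (median difference -1.44). The other 3 neutrophil markers had a higher mean in FFC, among them Ly6g (difference 4.29, limma adjusted p = 0.651). For astrocyte markers 3 of 5, and for oligodendrocyte lineage markers 4 of 6, had a higher mean in FFC (median difference 0.18 for both lists). These values were near those of all tested genes (56.7% higher, median difference 0.19). Of the 2 astrocyte markers lower in FFC, Clu had a difference of -4.55 (limma adjusted p = 0.382). The summed endothelial markers were at 22.5 to 75.3 FPKM across FF libraries and, with FFC 1 the highest, at 8.60 to 172 FPKM across FFC libraries. The part of these cells in the matrix gene levels was not tested. The laminin chain Lamc1 was at 8.56 ± 3.8 FPKM in FF against 3.26 ± 3.41 FPKM in FFC (limma adjusted p = 0.759). The collagen Col1a1 was at 21.0, 19.8, 0.636 and 1.40 FPKM in the FF libraries, against 0.116, 0.185, 6.85 and 4.96 FPKM in the FFC libraries. Versican, Vcan, and Col1a2 had means of 8.16 and 4.39 FPKM in FF and of 2.35 and 1.00 FPKM in FFC. Fibronectin, Fn1, was the 1 matrix gene with a higher mean in FFC, at 22.1 ± 25.9 FPKM in FF against 38.9 ± 23.6 FPKM in FFC (limma adjusted p = 0.759).

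**Figure D4:**
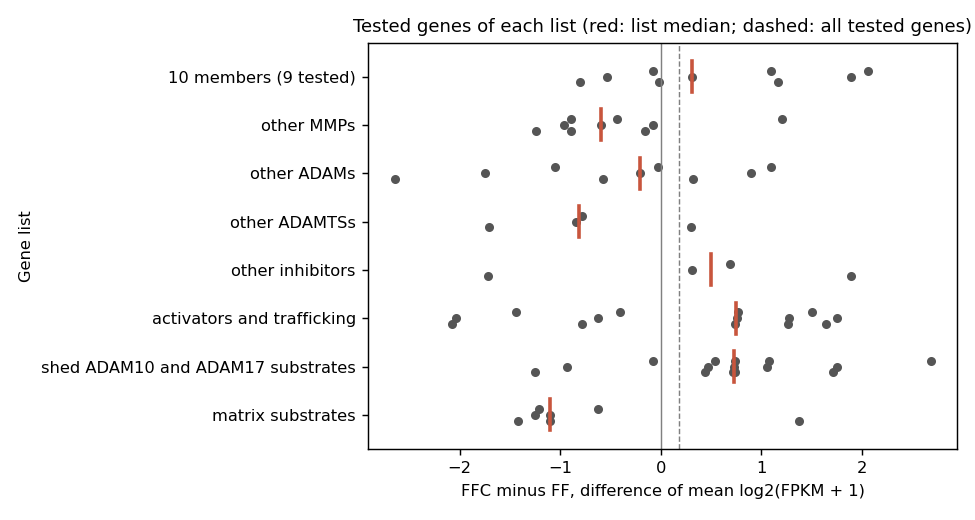
FFC minus FF difference of mean log2(FPKM + 1) for the tested genes of each list (grey points), with the list median in red and the median of all tested genes, 0.19, as a dashed line. The medians of the substrates shed by ADAM10 and ADAM17 and of the activators lie above 0.7, and those of the other matrix metalloproteinases, the other ADAMTS genes and the matrix substrates below -0.5.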

How the data were processed

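RNA of flow sorted optic nerve microglia from 4 FF and 4 FFC mice or pools was amplified and sequenced, per the labels' protocols. The authors deposited FPKM values, 1 column per library and not pooled. Per the submitters' processing notes the tools included Cufflinks 2.0.2, Bowtie2 2.0.0, TopHat2 2.0.4 and CASAVA 1.8.2, and the build was mm9; the sources used here give no annotation or settings. FPKM holds no counts, so no counting interval can be given. Of 37447 genes, 447 with a missing value in at least 1 library were left out. Starts are printed counted from 1, since 21680 genes then match GENCODE M21 in length and 420 otherwise; no GENCODE coordinate was used.

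The 17753 genes averaging 1 FPKM or more were tested as log2(FPKM + 1) with limma 3.58.1 in R 4.3.3 (trended empirical Bayes, two-sided, threshold 0.05 after Benjamini-Hochberg adjustment), and with exact permutation over the 70 arrangements. Sex had genotype as covariate. Alternatives were pseudocounts of 0.1 and 5, a filter at 5 FPKM or none, scaling by equal sums, quantiles or the upper quartile, weights for libraries, robust variances, sex, month, replicate number or receptor share as a term, and leaving out libraries. The limma genotype test, and not the others, was checked on simulated data.

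The members, lists and settings were chosen with earlier results of these data known. The rule for named genes took all 10 members and, from each pathway list, up to 4 tested genes with the smallest unadjusted p and up to 4 with the highest mean; marker genes and genes overlapping members are named where a value turns on them. Python 3.11.15, numpy 2.4.6, pandas 2.3.3 and matplotlib 3.10.9 did the rest.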

Additional observations from a re-analysis of the deposited data

Results flagged for a closer look

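Within each genotype, the highest and lowest library of each gene were compared with the nearest of the others, in FPKM and in log2(FPKM + 1), over 20 groups of 4 libraries. For normally distributed values looked at on a single scale, chance alone flags about 1 in 20 groups. The rate for skewed FPKM values, or over both scales together, was not worked out. Timp3 in FF 1, at 9.39 FPKM (3.38 on the log2 scale), was far above the other FF libraries on both scales. Timp3 in FFC 2, at 1.87 FPKM (1.52 on the log2 scale), was far above the other FFC libraries on both scales. Mmp14 in FF 3, at 25.8 FPKM, and Adam8 in FFC 1, at 111 FPKM, were far above their groups in FPKM but not on the log2 scale. The genotype difference did not pass a test of interaction with sex for any member (limma adjusted p = 1.00 for the 9 tested members).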

How the results depend on the processing

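No member was called in any of 22 alternatives (lowest limma adjusted p = 0.453). The direction of 6 members (Timp1, Timp2, Timp3, Mmp2, Mmp14 and Adam17) was kept in each alternative that gave a value, and 14 of 218 values over the 10 members reversed. Timp1 had no value under quantile normalization or array weights. Timp2 ranged from 0.66 to 2.22, Mmp14 from 0.81 to 2.80 and Adam17 from 0.79 to 1.42, the lowest each time with the receptor share as a term. With month as a term Adam8 was 2.59 (limma adjusted p = 0.599), Adam10 0.27 and Adamts1 -0.25; Adamts1 was -0.49 with the receptor share and -0.047 without FF 2 and FF 4. Leaving out single libraries gave Mmp12 -0.28 to 0.27 (above 0 without FF 3, FFC 1 or FFC 3), Adam8 -0.36 to 1.73 (below 0 without FFC 1), Adam10 -0.28 to 0.32 (above 0 without FF 1, FF 3, FFC 2 or FFC 3) and Adamts1 -0.27 to 1.23 (below 0 without FF 4 or FFC 4). The cause was not tested. Over all genes limma called 0 between genotypes (1146 at an unadjusted p under 0.05), 4 without FF 2 and FF 4, and 0 to 2 when single libraries were left out (1 or 2 without FF 1, FF 3, FF 4 or FFC 4, and 0 otherwise); 0 between sexes (0 to 4), and 0 for the interaction (0 to 1, and 6 without the expression filter). No called gene was a member. Scaling moved the median of all genes from 0.19 to 0.03 (upper quartile), and Timp2, Mmp14 and Adam17 were then 1.67, 1.89 and 0.94. Replicate numbers did not pair the libraries: deviations of same-numbered libraries correlated at -0.052 to 0.034, and 1 of 8 libraries correlated best with its own number. With the replicate block 0 genes were called (1014 at an unadjusted p under 0.05). Depth is known only as a relative estimate, so values below 1 FPKM, as for Timp1 and Timp3, cannot be given a counting error.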

Other observations

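Between males and females, with genotype as a covariate, limma called 0 genes (709 at an unadjusted p under 0.05) and 0 of the 9 tested members. Adamts1 had the largest member difference, 1.35 higher in males on the log2 scale (limma adjusted p = 0.953), and Timp2 was 1.01 lower in males. Timp2, Mmp14 and Adam17 had a higher mean in FFC within each sex: Timp2 by 2.15 in females and 1.64 in males, Mmp14 by 2.98 and 1.14, and Adam17 by 1.08 and 1.26, with 2 libraries per genotype and sex. Libraries differed across members: among the FF libraries FF 3 held the highest value of 7 of the 10 genes, and FF 2 the lowest value of 5, counting Timp1, which was listed at 0 in FF 4 too.

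The 10 genes summed to 103 to 274 FPKM in FF and 217 to 497 FPKM in FFC. Adam10, Adam17 and Timp2 together made up 68.7% to 90.3% of that sum in each library. Adam10 alone was 32.3% to 59.4% of it in FF and 19.6% to 27.6% in FFC, a separation noticed after the values were seen and not tested.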
